A study of Mus musculus with 10 samples.

Results

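The 10 genes of MHC class II presentation and T cell costimulation described here were H2-Aa, H2-Ab1, H2-Eb1, H2-DMa, H2-DMb1, Cd74, Ciita, Cd80, Cd86 and Cd40, taken by symbol from the 31053 genes of the count files and not by their values. They were measured by single-cell RNA sequencing in 10 libraries from E0771 tumors, a mammary carcinoma cell line from C57BL/6 mice that was placed in the fourth mammary fat pad of females aged 16 weeks and taken out on day 21. The EC-AGO1-KO mice (KO) carried the VE-Cadherin-Cre (Cdh5-cre) transgene and AGO1 flox/flox alleles on a C57BL/6 background, so the deletion was driven by an endothelial promoter. The WT mice were littermates from the same breeders, and whether they carried floxed alleles is not given in the sources used here. Batch 1 held 1 WT and 1 KO library. Batch 2 held WT 1, WT 3, WT 4 and WT 5 and KO 1, KO 2+3, KO 4 and KO 5+6, where KO 2+3 and KO 5+6 each pool 2 small tumors, so that 5 WT and 7 KO tumors were sampled.

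MHC class II molecules show peptides from engulfed protein to CD4+ T cells. H2-Aa and H2-Ab1 encode the α and β chains of I-A, and H2-Eb1 encodes the β chain of I-E, which C57BL/6 mice do not display because they lack the matching α chain. Cd74, the invariant chain, holds the new molecules and carries them to the endosome, where the H2-DM dimer of H2-DMa and H2-DMb1 exchanges the fragment of Cd74 left in the groove for a peptide. Ciita is the coactivator that switches the class II genes on, constitutively in dendritic and B cells and after interferon gamma in macrophages. Cd80 and Cd86 are the ligands of CD28 and CTLA-4 on T cells, and Cd40 is the receptor of CD40 ligand on helper T cells.

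In the genome build of the files (mm10), 5 of the 10 genes lie together on chromosome 17, from H2-DMa at chr17:34119541-34139101 and H2-DMb1 at chr17:34153072-34160230 to H2-Ab1 at chr17:34257689-34269419, H2-Aa at chr17:34282744-34287823 and H2-Eb1 at chr17:34305867-34316674. H2-Aa is on the minus strand and the other four are on the plus strand. Ciita (chr16:10480059-10528418, plus), Cd86 (chr16:36603869-36666081, minus) and Cd80 (chr16:38455561-38496335, plus) lie on chromosome 16 and Cd40 (chr2:165055627-165072948, plus) on chromosome 2. Class II promoters hold a Y box, a CCAAT motif bound by NF-Y, which works together with Ciita. The RefSeq promoter windows (GRCm38.p6, the assembly of mm10) held 5 of the 10 genes. The 150 bases before the RefSeq start are shown for H2-Aa and H2-Eb1, whose levels over the cell classes went closely together, for H2-DMb1, whose level did so less, and for Cd80, a costimulatory gene. Capitals mark CCAAT or its reverse complement ATTGG.
H2-Aa (chr17:34287824-34287973, minus strand): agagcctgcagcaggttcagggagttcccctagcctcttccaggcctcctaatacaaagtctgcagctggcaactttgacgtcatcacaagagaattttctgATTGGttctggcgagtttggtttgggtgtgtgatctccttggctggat
H2-Eb1 (chr17:34305717-34305866, plus strand): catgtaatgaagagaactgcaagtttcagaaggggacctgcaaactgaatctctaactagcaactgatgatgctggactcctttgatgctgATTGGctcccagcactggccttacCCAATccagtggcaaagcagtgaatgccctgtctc
H2-DMb1 (chr17:34153041-34153190, plus strand): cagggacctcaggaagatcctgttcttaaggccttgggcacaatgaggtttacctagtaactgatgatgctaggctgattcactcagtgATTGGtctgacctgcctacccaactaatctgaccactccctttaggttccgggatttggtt
Cd80 (chr16:38458783-38458932, plus strand): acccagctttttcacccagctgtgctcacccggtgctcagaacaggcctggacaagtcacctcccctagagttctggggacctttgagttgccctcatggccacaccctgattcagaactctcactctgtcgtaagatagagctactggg

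The searched windows were the 250 bases before each start, on both strands. The longer form CTGATTGG, which contains ATTGG, was found in H2-Aa, ending 43 bases before the start, and in H2-Eb1, ending 54 bases before it. It was present in 3.83% of all 32851 windows of that length. The core alone was found in H2-DMb1 as well, ending 56 bases before the start, and a further time in H2-Eb1, 30 bases before it. The core was present in 33.9% of all windows. Cd80 had no match, and H2-DMa had 2 windows, of which 1 held the core 193 bases before the start. The windows of Cd80 and H2-DMa lie inside the gene spans given above, so the sequence before those spans was not searched. The interferon gamma motif TTCNNNGAA, present in 7.02% of all windows, was in none of those of these genes.

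The 10 libraries held 65298 cells after the filters on genes per cell and mitochondrial UMIs, between 968 and 10190 per library, with 6064580 to 8593422 UMIs in cells per library. A cell of batch 1 had a median of 4049 (WT) or 3862 (KO) UMIs, against 595 to 1142 in batch 2. Actb held 1.99 to 2.27% of the UMIs in batch 1 and 8.77 to 17.0% in batch 2. The totals were therefore taken without it, and all levels below are counts-per-million (CPM) values, scaled by the UMIs of the class other than Actb. They come from 3' tags and are not scaled by gene length. Cell classes were rebuilt by clustering and named from markers. Macrophage-like cells numbered 24 to 236 per library, monocyte-like cells 8 to 188, dendritic-like cells 5 to 140, B-like cells 0 to 74 and tumor-like cells 375 to 9000. The classes carried their own markers beside those of the tumor: 12 of 12 macrophage markers summed to 3004 to 17410 CPM in macrophage-like cells of the 10 libraries, and 14 of 14 dendritic markers to 2202 to 4617 CPM in dendritic-like cells. Monocyte-like cells had 1040 to 5104 CPM of monocyte markers, with 12 of 12 detected. Tumor markers summed to 1702 to 4546 CPM in macrophage-like, 1947 to 4645 CPM in monocyte-like, 1485 to 5881 CPM in dendritic-like and 10560 to 21470 CPM in tumor-like cells. In monocyte-like cells their median exceeded that of monocyte markers, 3611 against 1784 CPM in WT and 3420 against 1617 CPM in KO. Free RNA, from outside cells, was estimated at 10.35 to 43.5% of the UMIs of macrophage-like cells in batch 2. It was 6.65 to 28.6% in monocyte-like and 10.3 to 42.3% in dendritic-like cells, where it could be estimated. In batch 1 it was 0 to 15.6% in these classes. The levels below hold this RNA, which was removed only in the alternative that subtracts it. Libraries shared 532 barcodes, 0.821% of the distinct barcodes kept, and at most 28 between any 2 libraries. WT 4 stands apart by its small number of immune cells, with 24 macrophage-like, 8 monocyte-like and 5 dendritic-like cells.

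The deleted gene could not check the genotype labels. Ago1 had 0 UMIs in endothelial-like cells of every library, WT and KO. With 62496 UMIs in the 76 WT cells this allows a level of up to 48.0 CPM, and with 84947 UMIs in the 133 KO cells up to 35.3 CPM. Cdh5, which marks endothelium, had 54 UMIs in these WT cells and 72 in the KO cells. Over all cells Ago1 lay between 4.97 and 7.21 CPM in the WT libraries and between 4.97 and 7.96 CPM in the KO libraries.

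Among the immune, tumor-like and endothelial-like classes, class II transcripts were highest in dendritic-like and B-like cells, lower in macrophage-like and monocyte-like cells, and lowest in tumor-like and endothelial-like cells. The summed level of the 6 class II genes in batch 1 was 29320 ± 3440 CPM (SD, n = 2 libraries) in dendritic-like cells, 22580 ± 883 in B-like cells, 8081 ± 501 in macrophage-like cells and 7411 ± 808 in monocyte-like cells. Dendritic-like and B-like cells therefore stood well above the macrophage-like and monocyte-like cells, and these last 2 classes differed by less than their spread. In the same batch T and NK-like cells were at 505.5 ± 535 CPM and tumor-like cells at 41.0 ± 7.79 CPM. In batch 2 the order was dendritic-like (3853 ± 1119 CPM, n = 7), monocyte-like (2198 ± 1049, n = 7), B-like (2039 ± 605, n = 4), macrophage-like (1395 ± 807, n = 8), T and NK-like (182 ± 107, n = 8) and tumor-like cells (14.1 ± 7.42, n = 8). There the monocyte-like, B-like and macrophage-like cells differed by less than the SD of the macrophage-like cells. Barcodes with at most 50 UMIs, which hold RNA from outside cells, were at 520.2 CPM in batch 1 and 248 ± 114 CPM in batch 2, above the tumor-like cells in both batches.

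**Figure D1:**
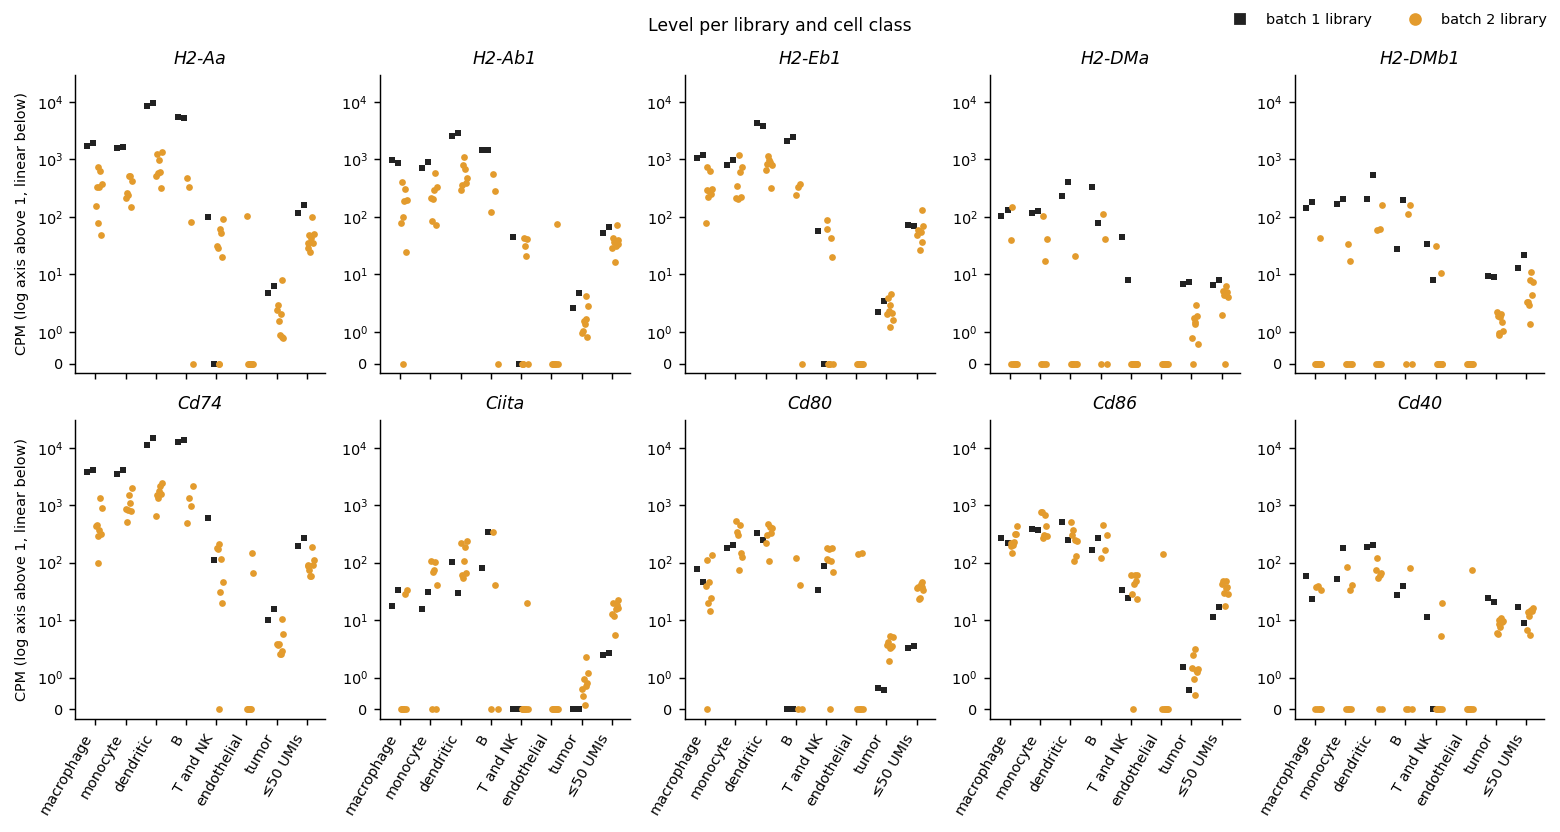
Each panel plots 1 of the 10 genes, with the cell class on the x axis and its CPM in the class on the y axis (logarithmic above 1), and each point is 1 library with at least 10 cells of the class (black squares, batch 1; orange circles, batch 2). The class II chains and Cd74 were highest in dendritic-like and B-like cells of batch 1, where the means of Cd74 were 12900 and 13150 CPM, and the batches lie apart for these genes but overlap for Cd86.

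Among the class II genes Cd74 had the most UMIs in each of these classes. Its mean in batch 1 was 13150 CPM in B-like, 12900 in dendritic-like, 3923 in macrophage-like, 3809 in monocyte-like and 12.7 in tumor-like cells. H2-Aa was next in the presenting classes of batch 1, at 8918 CPM in dendritic-like, 5395 in B-like, 1819 in macrophage-like and 1589 in monocyte-like cells, followed by H2-Eb1 (4086, 2268, 1143 and 899.5) and H2-Ab1 (2728, 1454, 915 and 805). In batch 2 the 3 chain genes were closer together: in monocyte-like cells H2-Eb1 was at 503 ± 370, H2-Aa at 330 ± 154 and H2-Ab1 at 254 ± 171 CPM (SD, n = 7), and their ranges overlapped. The H2-DM genes, whose product edits the peptides, were far below the chains. In batch 1 H2-DMa was at 313 and H2-DMb1 at 369 CPM in dendritic-like cells, and at 117 and 164 CPM in macrophage-like cells. In batch 2 macrophage-like cells they rested on 2 and 3 UMIs in all 8 libraries. H2-DMb1 has a close paralog, H2-DMb2, and UMIs that match both would be left uncounted, so its level is uncertain.

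Ciita was low everywhere. It was at 215 CPM in B-like, 66.8 in dendritic-like, 25.3 in macrophage-like and 23.0 in monocyte-like cells of batch 1, and at 133 ± 80.1 CPM in dendritic-like and 56.1 ± 44.0 CPM in monocyte-like cells of batch 2 (SD, n = 7), while batch 2 macrophage-like cells held 3 UMIs. The B-like and dendritic-like values of batch 1 rested on 12 and 7 UMIs, and in B-like cells WT was at 81.4 and KO at 348 CPM. B-like cells of batch 2 were at 93.85 ± 161.5 CPM (SD, n = 4), from 4 UMIs. In batch 1 Ciita was thus highest in B-like and dendritic-like cells, where the chain genes were highest too, though in the other order. In batch 2 Ciita and the chain genes were both highest in dendritic-like cells.

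The costimulatory genes had another order. Cd80 was at 292 CPM (batch 1) and 320 ± 125 CPM (batch 2, SD, n = 7) in dendritic-like cells, at 191 and 283 ± 176 CPM in monocyte-like cells, and at 61.4 and 48.6 ± 48.0 CPM in macrophage-like cells. In B-like cells of batch 1 it had 0 UMIs. Unlike the class II genes it was no lower in T and NK-like cells (60.6 CPM and 117 ± 62.9 CPM, SD, n = 8 in batch 2) than in macrophage-like cells beyond the spread of the libraries, which overlapped. Cd86 was spread evenly over the presenting classes, at 375 CPM in dendritic-like, 380.0 in monocyte-like, 242 in macrophage-like and 217 in B-like cells of batch 1, and at 272 ± 140, 498 ± 225, 257 ± 91.6 and 258 ± 148 CPM in batch 2. Cd40 was at 197, 115, 41.2 and 32.9 CPM in dendritic-like, monocyte-like, macrophage-like and B-like cells of batch 1, and at 22.4 CPM in tumor-like cells.

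Within a class the level followed the cluster. In batch 1 the macrophage-like cells formed 3 clusters. The largest, of 308 cells, had a summed class II level of 10970 CPM, the dividing cells (28) 6859 CPM, and a cluster of 131 cells led by Pf4 and Mrc1 3502 CPM. The study marked M2-like macrophages by Mrc1 and Arg1 and tissue-resident ones by other genes, and this cluster was not matched to either. The complement gene C1qa, a macrophage marker, differed less between the 3 clusters, at 2867, 2214 and 2311 CPM. Costimulation did not follow class II here: Cd86 was at 219.7 CPM in the largest and 251.3 CPM in the Pf4 cluster, and Cd80 at 53.2 and 73.5 CPM. The monocyte-like cells of batch 1 split into a Ly6c2 cluster of 186 cells at 8155 CPM and an Ace and Treml4 cluster, the nonclassical kind, of 32 cells at 2179 CPM. The dendritic-like cells of batch 2 split into type 1 cells (304, named from Xcr1, Clec9a and related markers) and mature cells (121, Ccr7 and Fscn1), whose summed class II level was 4782 and 2158 CPM, while Cd80 was at 325 and 436 CPM. The 57 dendritic-like cells of batch 1 formed 1 cluster with markers of mature, type 2 and plasmacytoid cells, so the class differs in its make-up between batches. Clusters were built from the same cells, and these differences are given without a test.

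Macrophage-like cells held 57.8% of the 20669 class II UMIs of batch 1, dendritic-like cells 16.7%, monocyte-like cells 15.2%, B-like cells 6.82% and tumor-like cells 2.13%. In batch 2, with 2727 class II UMIs in all, the shares were 19.99% for dendritic-like, 15% for macrophage-like, 14.5% for monocyte-like and 3.48% for B-like cells, and 21.3% for tumor-like cells and 21.4% for cells without a class. These shares carry the number of cells of each class as well as the level per cell.

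The class II chains and Cd74 were lower in batch 2 than in batch 1, while Cd80 and Cd86 differed less and in either direction. In macrophage-like cells the pooled level in batch 1 was 6.23 times that in batch 2 for Cd74, 5.79 times for H2-Aa, 4.87 times for H2-Ab1 and 3.29 times for H2-Eb1, but 1.37 times for Cd80 and 0.875 times for Cd86. In dendritic-like cells the ratio was 12.1 for H2-Aa and 7.55 for Cd74, against 0.793 for Cd80 and 1.30 for Cd86. In monocyte-like cells it was 4.13 for H2-Aa, 3.44 for Cd74, 2.38 for H2-Ab1 and 1.70 for H2-Eb1, against 0.615 for Cd80 and 0.755 for Cd86. Over all genes of macrophage-like cells with at least 100 CPM, the ratio followed the length of the gene body. Of 4 groups by length, the shortest, with 516 genes of 0.204 to 11.9 kb, had a median log2 ratio of batch 2 to batch 1 of -2.62, and the longest, of 100.25 to 4435 kb, one of 1.76. Across the 2063 genes Spearman's rho was 0.643, which describes genes of the same 10 libraries and not independent samples. By length, H2-Aa (5.08 kb), H2-DMb1 (7.16 kb), Cd74 (8.81 kb), H2-Eb1 (10.8 kb) and H2-Ab1 (11.7 kb) fall in the range of the shortest group, H2-DMa (19.6 kb), Cd40 (17.3 kb) and Cd80 (40.8 kb) in that of the next, and Ciita (48.4 kb) and Cd86 (62.2 kb) in that of the one after it. Cd40, Cd80 and Ciita were under 100 CPM in both batches, so they match these groups by length but not by level. The longer members lay below the medians of the groups of like length. The log2 ratio was -2.88 for H2-DMa, -1.02 for Cd40 and -0.38 for Cd80, against a median of 0.47. It was -0.77 for Ciita and 0.19 for Cd86, against 1.55. H2-DMa, Cd40 and Ciita rested on 2, 4 and 3 UMIs in batch 2. The batches also differ in sequencer, depth and Actb share, and these cannot be told apart, so KO and WT were compared only with batch as a term or within a batch.

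**Figure D2:**
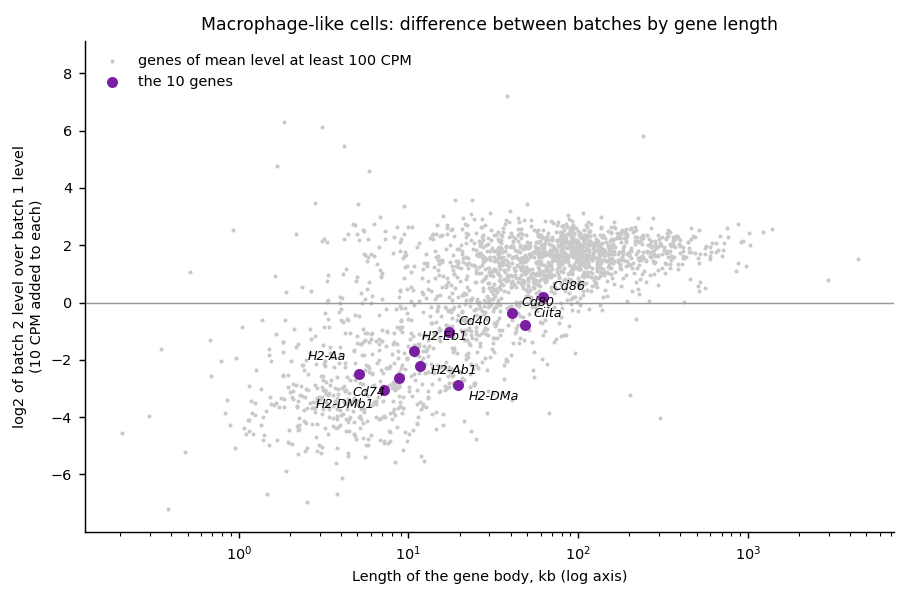
Each grey point is 1 gene with at least 100 CPM in macrophage-like cells, with the length of its gene body in kb on the x axis (logarithmic) and the log2 ratio of its level in batch 2 to that in batch 1 on the y axis (10 CPM added to both), and the 10 genes are labelled. The class II chains and Cd74 sit among the short genes, whose median ratio was -2.62, and Cd80, Cd86 and Ciita among the longer ones.

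In tumor-like cells the class II chains and Cd74 were far below the level of RNA outside cells. H2-Aa was at 5.48 CPM in batch 1 and 2.43 ± 2.40 CPM in batch 2 (SD, n = 8), and Cd74 at 12.7 and 4.42 ± 2.58 CPM. Pooled over libraries, the barcodes with at most 50 UMIs were at 137 and 45.7 CPM for H2-Aa and at 228 and 97.0 CPM for Cd74. Tumor-like cells differed from the other classes in the mix: the H2-DM genes gave 40.1% of their class II UMIs in batch 1 (177 of 441, exact 95% interval 35.5 to 44.9%) and 20.9% in batch 2 (121 of 580, 17.6 to 24.4%), against 3.49 and 1.22% in macrophage-like cells and 4.70 and 3.74% in the barcodes with at most 50 UMIs. The CPM of either H2-DM gene was no higher in tumor-like cells than in those barcodes. Free RNA was estimated at 8.82 to 8.88% of the UMIs of tumor-like cells in batch 1 and 4.16 to 7.48% in batch 2. Its part in their H2-DM level was not tested. H2-DMa was at 7.07 CPM in tumor-like cells and 7.24 CPM in those barcodes in batch 1, and at 1.31 and 4.11 CPM in batch 2. H2-DMb1 was at 9.19 and 17.0 CPM in batch 1 and at 1.52 and 5.30 CPM in batch 2. Ciita had 0 UMIs in tumor-like cells of batch 1, which allows up to 0.276 CPM, and 36 UMIs (0.844 CPM) in batch 2, where the barcodes were at 16.1 CPM. All intervals and limits cover counting error only.

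Cd40 was the member with the largest part of its UMIs in tumor-like cells, 62.1% in batch 1 and 82.8% in batch 2. In batch 1 it was at 22.6 CPM in these cells (95% interval 19.9 to 25.6), above the 13.2 CPM (8.97 to 18.7) of the barcodes with at most 50 UMIs. In batch 2 the order was turned, with 8.44 CPM (7.59 to 9.36) in tumor-like cells and 12.6 CPM (10.6 to 14.9) in the barcodes. Free RNA was estimated at 4.16 to 7.48% of the UMIs of tumor-like cells in batch 2, and its part in their Cd40 level was not tested.

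**Figure D3:**
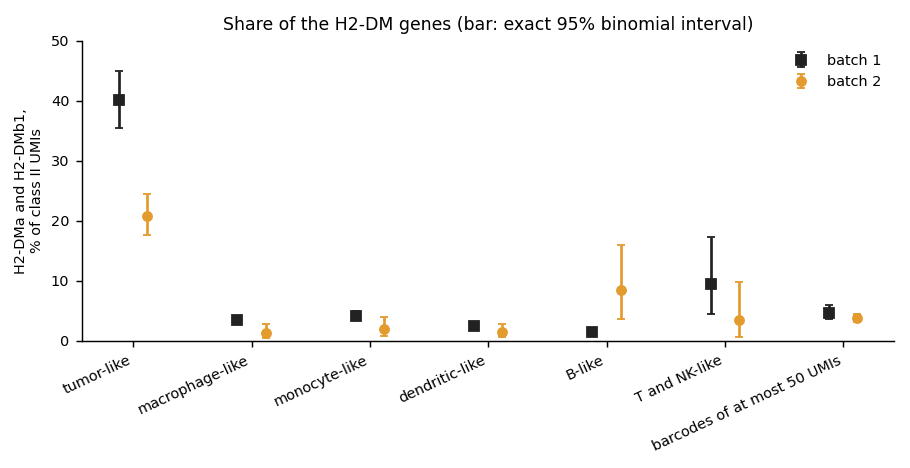
The y axis gives the percent of class II UMIs that came from H2-DMa and H2-DMb1, for each cell class on the x axis and each batch, with exact 95% binomial intervals as bars. Tumor-like cells stand highest in both batches, at 40.1 and 20.9%, while macrophage-like and dendritic-like cells are under 4%.

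Endothelial-like cells, where the deletion is directed, gave few class II UMIs. Over the 8 libraries of batch 2, with 92043 UMIs in these cells, H2-Aa, H2-Ab1, Cd86 and Cd40 had 1 UMI each, Cd74 and Cd80 had 3 each, and H2-Eb1, H2-DMa, H2-DMb1 and Ciita had 0, which allows up to 32.6 CPM. The summed class II level of the 7 libraries with at least 10 such cells was 56.0 ± 84.4 CPM, from 5 UMIs, below the 248 ± 114 CPM of the barcodes with at most 50 UMIs. The endothelial-like cells of batch 1, 9 in WT and 8 in KO, held 15 class II UMIs, 271 CPM (exact 95% interval 152 to 447), of which Cd74 had 10, also below the 517 CPM of the pooled barcodes. Tumor markers were above those of the class itself: the 8 endothelial markers summed to 1083 to 2390 CPM in batch 2, and the 8 tumor markers to 7170 to 13780 CPM. Free RNA was estimated at 100% of the UMIs of these cells in every library where it could be estimated. None of the 10 genes passed the filter for a test in this class, and edgeR called 0 of 236 genes (0%), with 22 (9.32%) at an unadjusted p under 0.05, while DESeq2 called 0 and had 11 at that level.

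KO and WT were then compared within each class, on UMIs summed per library, by edgeR's quasi-likelihood test with batch as a term. A gene was called at a Benjamini-Hochberg adjusted p under 0.05 over all genes tested. No member was called in any class or over all cells in this fit. Each library came from 1 tumor or from 2 pooled tumors.

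In macrophage-like cells Cd74 was at 431, 445, 293 and 99.5 CPM in WT 1, WT 3, WT 4 and WT 5 and at 371, 1330, 320 and 898 CPM in KO 1, KO 2+3, KO 4 and KO 5+6. In batch 1 it was at 3740 CPM in WT (exact 95% Poisson interval 3597 to 3887) and 4105 CPM in KO (3964 to 4249). The libraries that pool tumors, KO 2+3 and KO 5+6, were above every WT library of batch 2, while KO 1 and KO 4 lay within the WT range. The fitted log2 fold change was 0.79 (SE 0.31, edgeR adjusted p = 0.974, 5 WT and 5 KO libraries). The call depended on which libraries entered. Without the WT library of batch 1 the log2 fold change was 1.51 (edgeR adjusted p = 0.0293) and without its KO library 1.52 (adjusted p = 0.0270). Each of these fits leaves 1 library in batch 1, which the batch term takes up. Both therefore compare the batch 2 libraries and are not separate results. The fit of batch 2 alone gave 1.45 (SE 0.46, edgeR adjusted p = 0.618), which was not called. Without KO 2+3 the log2 fold change was 0.41, without WT 5 it was 0.49 and without both pooled libraries 0.12. The counts behind the batch 2 values were 2 to 94 UMIs.

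H2-Aa in macrophage-like cells was at 157, 334, 733 and 79.6 CPM in the WT and 325, 623, 49.2 and 366 CPM in the KO libraries of batch 2, with a log2 fold change of 0.39 (SE 0.31, edgeR adjusted p = 0.997). H2-Eb1 differed by 0.34 (SE 0.26), H2-Ab1 by -0.11 (SE 0.29) and Cd86 by 0.090 (SE 0.26) on the log2 scale, each with an edgeR adjusted p of 0.997. For H2-Aa, H2-Eb1 and H2-Ab1 the WT and KO libraries of batch 2 overlapped. For Cd86 they did not. Every KO library (232 to 432 CPM) lay above every WT library (147 to 222 CPM), from 1 to 22 UMIs per library. In batch 1 the order of Cd86 was turned, WT (267 CPM) being above KO (218 CPM). Of the 1421 genes tested, edgeR and DESeq2 each called 0 (0%). At an unadjusted p under 0.05 edgeR had 51 genes (3.59%) and DESeq2 26, and Cd74 was the member among edgeR's. A positive log2 fold change was found for 627 genes (44.1%) and for 4 of the 5 members tested, all but H2-Ab1. In batch 1 the low class II cluster led by Pf4 held 77 of 231 WT and 54 of 236 KO macrophage-like cells, a difference that moves with the level of the class, and its part in the result was not tested.

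**Figure D4:**
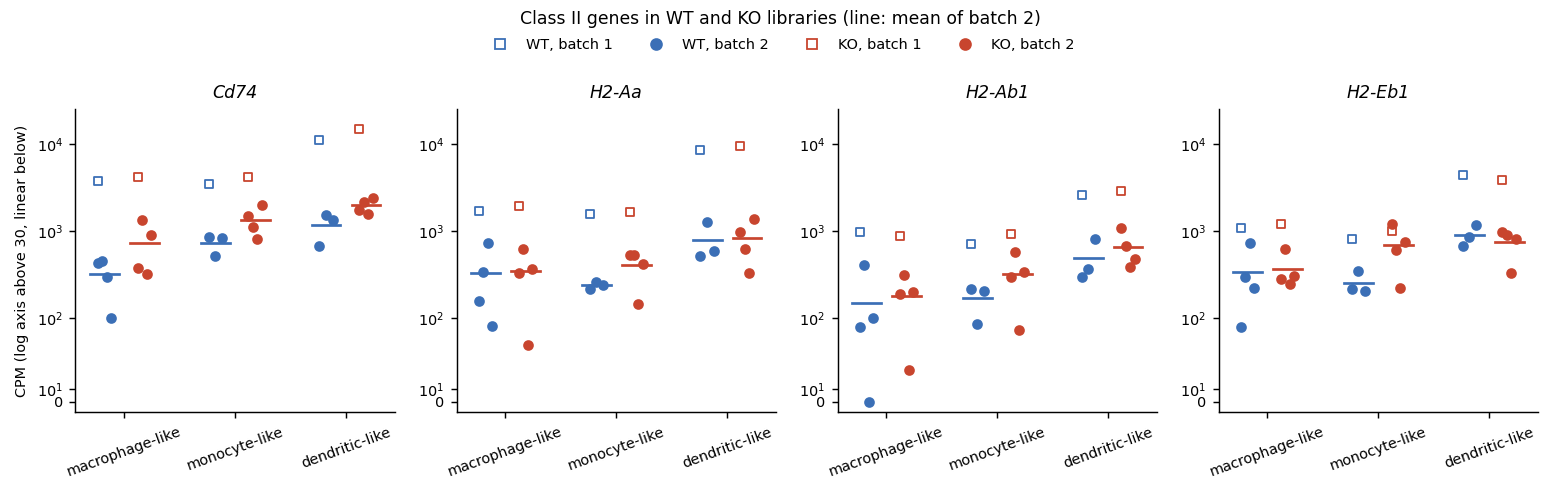
Levels of Cd74, H2-Aa, H2-Ab1 and H2-Eb1 (CPM, logarithmic above 30) are plotted for macrophage-like, monocyte-like and dendritic-like cells, with 1 point per library (blue, WT; red, KO; squares, batch 1; circles, batch 2) and a line at the mean of batch 2. WT and KO points of batch 2 overlap except for Cd74 in dendritic-like cells, where the KO libraries run from 1553 to 2390 CPM and the WT libraries with at least 10 cells from 661 to 1499 CPM.

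In monocyte-like cells H2-Eb1, H2-Ab1 and Cd74 had the larger estimates. WT 4, with 8 such cells, was left out. H2-Eb1 was at 214.5, 340.5 and 205 CPM in WT 1, WT 3 and WT 5 and at 1188.5, 606.5, 219 and 746 CPM in KO 1, KO 2+3, KO 4 and KO 5+6. All KO libraries but KO 4 were above every WT library. The log2 fold change was 0.65 (SE 0.28, edgeR adjusted p = 0.689), and it was 0.45 without WT 5. Without the WT library of batch 1 it was 1.48 and without the KO library of batch 1 it was 1.49. As above, both of these compare the batch 2 libraries and are not separate results. Cd74 was at 858, 511 and 820 CPM in WT and 1486, 1095, 801 and 1990 CPM in KO, with 0.52 (SE 0.25, edgeR adjusted p = 0.689), and again KO 4 lay inside the WT range. Without either batch 1 library, again the comparison of batch 2, the value for Cd74 was 0.87, and without KO 5+6 it was 0.36. H2-Ab1 differed by 0.55 (SE 0.30, edgeR adjusted p = 0.736) and H2-Aa by 0.25 (SE 0.28, adjusted p = 0.916). Both costimulatory genes tested had estimates below 0, -0.19 (SE 0.37) for Cd80 and -0.10 (SE 0.27) for Cd86. Cd80 was at 536, 340.5 and 307 CPM in WT and 74.3, 455, 146 and 124 CPM in KO, so that KO 2+3 alone was within the WT range, but in batch 1 WT was at 178.5 and KO at 203 CPM. Of 948 genes tested edgeR and DESeq2 called 0 (0%), with 67 (7.07%) and 21 at an unadjusted p under 0.05, among them 2 and 1 of the 6 members tested. Estimates above 0 were found for 412 genes (43.5%) and 4 of these 6.

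In dendritic-like cells the groups of batch 2 did not overlap for Cd74, higher in KO, and for Cd86, lower in KO, in the libraries with at least 10 such cells. Cd74 was at 661, 1499 and 1324 CPM in WT 1, WT 3 and WT 5, and at 1731, 2152, 1553 and 2390 CPM in KO 1, KO 2+3, KO 4 and KO 5+6, from 9 to 105 UMIs per library. WT 4, left out with 5 dendritic-like cells and 5 Cd74 UMIs, was at 3634 CPM, above them all. In batch 1 Cd74 was at 11109 CPM in WT (10186 to 12093) and 14700 CPM in KO (13803 to 15640), so the direction was the same. The log2 fold change was 0.64 (SE 0.24, edgeR adjusted p = 0.736), and it was 0.50 to 0.74 when any 1 library was left out, and 0.26 without a batch term. In batch 2 the type 1 cells were 65.5 to 78.2% of the dendritic-like cells in the WT and 61.5 to 74.2% in the KO libraries. Within type 1 cells Cd74 was at 777, 1539.5 and 1515 CPM in WT and 1973, 2393, 2421 and 3072 CPM in KO, again apart. Within mature cells it was at 300.1, 1356.5 and 999.9 CPM in WT and 932, 1626, 168 and 797 CPM in KO, which overlap. The value of 932 CPM is from KO 1, with 8 mature cells, under the minimum of 10 used elsewhere.

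The chain genes of dendritic-like cells had estimates closer to 0 than that of Cd74, and the groups overlapped. H2-Aa was at 514, 1259 and 583 CPM in WT and 974, 615, 324 and 1354.5 CPM in KO, with a log2 fold change of 0.070 (SE 0.28). H2-Ab1 differed by 0.27 (SE 0.29) and H2-Eb1 by -0.18 (SE 0.27), each of the 3 with an edgeR adjusted p of 0.974. Cd86 did not pass the filter. It was at 514, 300 and 371 CPM in WT and 108, 246, 129 and 239 CPM in KO libraries of batch 2, and at 500.2 (320 to 744) and 249.9 CPM (146 to 400.1) in batch 1, where the intervals overlap. Every KO value was thus below every WT value within its batch, from 1 to 24 UMIs per library, but WT 4, left out with 5 cells, had 0 UMIs. Of 577 genes tested edgeR and DESeq2 called 0 (0%), with 29 (5.03%) and 12 at an unadjusted p under 0.05. Estimates above 0 were found for 316 genes (54.8%) and 3 of the 4 members tested.

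B-like cells entered with WT 1 and 3 KO libraries of batch 2. Cd74 was at 480 CPM in WT 1, from 4 UMIs, and at 1338, 984 and 2124 CPM in KO 2+3, KO 4 and KO 5+6. The batch 1 libraries were at 12644 (WT) and 13649 CPM (KO). The log2 fold change was 0.50 (SE 0.51) for Cd74, 0.24 (SE 0.53) for H2-Eb1, 0.17 (SE 0.49) for H2-Ab1 and -0.45 (SE 0.57) for H2-Aa, each with an edgeR adjusted p of 0.996. Of 507 genes edgeR called 1 (0.197%), Edem1, an endoplasmic reticulum protein of misfolded glycoprotein disposal, with 31 (6.11%) at an unadjusted p under 0.05. Edem1 was lower in KO by a log2 fold change of -2.46 (SE 0.61, edgeR adjusted p = 0.0277), and it rested on 22 UMIs (2639 CPM) in WT 1, against 54.3 CPM in the WT library of batch 1 and 223, 656 and 0 CPM in the KO libraries of batch 2. Without WT 1, without KO 2+3, without KO 4 or without KO 5+6 the number of called genes was 0, and DESeq2 called 0 with 9 at an unadjusted p under 0.05.

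In tumor-like cells, 9 of the 10 genes passed the filter and all had estimates within 1 on the log2 scale. H2-Ab1 differed by 0.88 (SE 0.37, edgeR adjusted p = 0.833) and Cd74 by 0.57 (SE 0.31, adjusted p = 0.833). Cd74 was at 3.8, 3.7, 3.8 and 2.6 CPM in WT and 2.6, 10.3, 2.9 and 5.7 CPM in KO libraries of batch 2. KO 2+3 was highest for Cd74, and it was also the library with the highest class II level in barcodes of at most 50 UMIs, 507.5 CPM against 126 CPM in the lowest. The part of that RNA in the tumor-like level was not tested. Cd40, for which tumor-like cells held most UMIs, was at 6.1, 5.8, 8.5 and 10.2 CPM in WT and 7.7, 11.0, 9.1 and 9.5 CPM in KO, with a log2 fold change of 0.085 (SE 0.19). Of 13065 genes edgeR and DESeq2 called 0 (0%), with 769 (5.89%) and 647 at an unadjusted p under 0.05.

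Over all cells of a library Cd74, H2-Aa and H2-Eb1 had larger estimates of KO against WT than in any single class. Cd74 was at 13.6, 17.5, 10.7 and 14.2 CPM in WT 1, WT 3, WT 4 and WT 5, and at 15.1, 74.5, 22.7 and 32.2 CPM in KO 1, KO 2+3, KO 4 and KO 5+6. In batch 1 it was at 610 CPM in WT (592 to 628) and 868 CPM in KO (846 to 891). KO 1 lay among the WT libraries and the other KO libraries above them. The log2 fold change was 1.07 (SE 0.31, edgeR adjusted p = 0.442, 5 WT and 5 KO libraries). It was 1.30 within batch 2 alone, 0.60 without KO 2+3 and 0.38 without both pooled libraries. In such a sum a change in the number of presenting cells and a change in the RNA per cell cannot be told apart. Macrophage-like, monocyte-like, dendritic-like and B-like cells together were 1.88, 2.30, 0.394 and 4.85% of the cells in the WT and 1.797, 8.85, 4.27 and 3.16% in the KO libraries of batch 2, and 33.6% in WT and 42.0% in KO of batch 1. Within batch 2, KO 2+3 had both the largest share of presenting cells and the highest level of Cd74.

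Ciita had the largest estimate over all cells, 1.31 (SE 0.39, edgeR adjusted p = 0.442). It was at 1.43, 0.74, 0.89 and 0.94 CPM in WT and 1.33, 6.30, 1.84 and 2.34 CPM in KO libraries of batch 2, and at 3.19 CPM in WT (2.02 to 4.78) and 6.90 CPM in KO (5.03 to 9.24) of batch 1. KO 1 alone was below the highest WT library. H2-Ab1 differed by 0.86 (SE 0.36, edgeR adjusted p = 0.494), H2-Aa by 0.82 (SE 0.38, adjusted p = 0.530), H2-Eb1 by 0.77 (SE 0.31, adjusted p = 0.492) and Cd86 by 0.55 (SE 0.27, adjusted p = 0.5535). Without KO 2+3 these were 0.34, 0.26, 0.28 and 0.20, and Ciita was 0.87. H2-DMa, H2-DMb1, Cd80 and Cd40 had estimates from 0.12 to 0.52. Of 14181 genes edgeR called 0 (0%) and DESeq2 called 2, neither of them a member. At an unadjusted p under 0.05 edgeR had 1313 genes (9.26%) and 5 of the 10 members, and DESeq2 1203 genes and 3 members. Estimates above 0 were found for 6986 genes (49.3%) and for all 10 members.

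The filter on low counts decided the call over all cells. Without it, the edgeR fit took in 27390 genes and called 242, 207 higher and 35 lower in KO, among them Cd74 (log2 fold change 1.05), H2-Aa (0.80), H2-Ab1 (0.84), H2-Eb1 (0.75) and Ciita (1.28). The estimates hardly moved and their errors shrank, from 0.31 to 0.15 for Cd74.

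**Figure D5:**
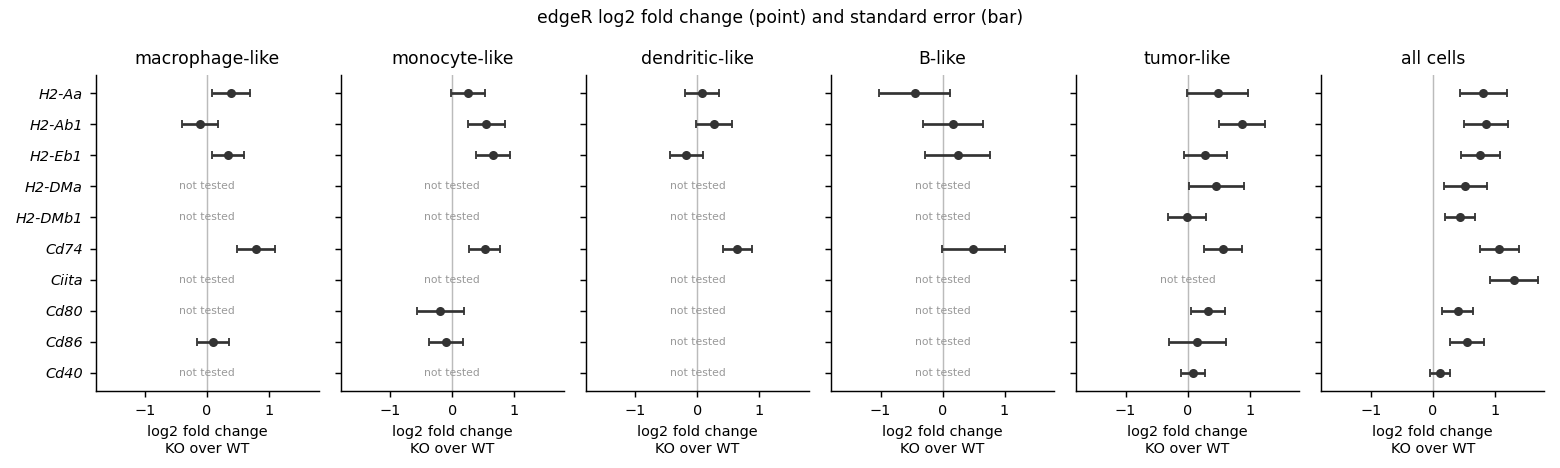
The log2 fold change of KO against WT from edgeR, with its SE as a bar, is plotted for each of the 10 genes in macrophage-like, monocyte-like, dendritic-like, B-like and tumor-like cells and over all cells, and genes under the filter are marked as not tested. Estimates for the class II genes lie mostly above 0 and reach 1.07 for Cd74 over all cells, and none passed the adjusted threshold.

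No gene of the 6 pathway lists was called in any class, and only genes that passed the low-count filter are in these counts. Of 11 class II molecules and chaperones, 4 were tested in macrophage-like cells, all of them members, with a median log2 fold change of 0.36 against -0.032 over all genes tested. In monocyte-like cells the same number were tested, with a median of 0.54 against -0.047, and in dendritic-like cells with 0.17 against 0.054. Over all cells 8 of the 11 were tested, with a median of 0.79 against -0.0044. H2-DMb2, H2-Ob and H2-Oa, the other chains of the DM and DO dimers, had 7, 3 and 1 UMIs in macrophage-like and 20, 11 and 10 in dendritic-like cells of all libraries.

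The transcription factors that bind class II promoters with Ciita were too few in UMIs to test in the myeloid classes. Creb1, Nfyc and Nfya had 79, 75 and 45 UMIs in macrophage-like and 33, 21 and 7 in dendritic-like cells. Over all cells the 8 genes of this list had a median log2 fold change of 0.056. Among the processing genes, Ctss, the protease that trims Cd74, was at 587.8 to 1466.5 CPM in the WT and 974 to 1131 CPM in the KO libraries of batch 2 in macrophage-like cells, which overlap, with a log2 fold change of 0.35 (SE 0.21, edgeR adjusted p = 0.997). It was 0.095 (SE 0.32) in dendritic-like cells. Ctsb, another lysosomal protease, differed by 0.0079 and Lgmn, the asparagine endopeptidase, by -0.10 in macrophage-like cells. The list had 6 genes tested there, with a median of 0.094, and 7 over all cells, with a median of 0.10.

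Of 14 costimulatory and coinhibitory ligands, 2 were tested in macrophage-like cells (Cd83 and Cd86, median 0.032), 3 in monocyte-like cells (median -0.19) and 11 over all cells (median 0.23). Cd83, which keeps class II at the surface, was the most abundant of those outside the set, and its log2 fold change in macrophage-like cells was -0.025 (SE 0.27). Cd274 and Icosl, ligands of PD-1 and ICOS, had 52 and 48 UMIs in dendritic-like cells, under the filter. The receptors on T cells had 10 of 11 genes tested over all cells, with a median of 0.61, and all 10 estimates were above 0. T and NK-like cells numbered 33 to 105 in the WT and 97 to 511 in the KO libraries of batch 2, with the most in KO 2+3. The inducers through interferon gamma had 3 genes tested in macrophage-like cells, with a median of -0.054, and in dendritic-like cells Jak2 differed by -0.43 (SE 0.23, edgeR adjusted p = 0.968) and Ifngr2, a receptor chain, by -0.020.

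Over the 84 sums of 1 class in 1 library, the 5 genes whose log2 level was most like that of the summed 6 class II genes, among 11168 genes, were Ly86 (Pearson's r 0.869), Cd83 (0.855), Syk (0.841), Stap1 (0.830) and Plek (0.823). In batch 2 alone, over 71 sums, r was 0.844, 0.798, 0.860, 0.842 and 0.852. Of the 10 genes, each set against the summed other class II genes, H2-Eb1 (0.917), Cd74 (0.909), H2-Aa (0.891), H2-Ab1 (0.879) and Cd86 (0.842) were closest, Ciita was at 0.712, and H2-DMb1 (0.631), H2-DMa (0.617), Cd40 (0.578) and Cd80 (0.553) were furthest. The order of these last 4 turned in batch 2 alone, where Cd80 was at 0.606, H2-DMb1 and Cd40 at 0.439 and H2-DMa at 0.376. The points share libraries and depth, and the coefficients describe these sums.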

How the data were processed

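The deposited values are raw counts of UMIs, made by the authors with Cell Ranger 7.1.0 on mm10 according to the submitters' processing notes, and they include barcodes without cells. Their integration and cell annotation were not used here. A barcode was taken as a cell when it had 200 to 7000 genes and mitochondrial genes gave no more than 10% of its UMIs. Actb was left out of totals and clustering. Each batch was clustered on 2000 variable genes, 30 principal components and 15 neighbours at Leiden resolution 1 (Python 3.11.15, scanpy 1.11.5, leidenalg 0.10.2), with 60 genes, the members among them, kept out. A cluster was named from at least 3 markers that were 2-fold higher (20 CPM added) and detected in 2% of its cells, in up to 3 rounds, so class names are rebuilt and may differ from the study's. Clusters with Pvt1, a tumor marker, above 50% of its strongest cluster's level and other classes' markers were set aside as mixed. No doublet caller was run.

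UMIs were summed per library and class for libraries with at least 10 cells, and KO was tested against WT with edgeR 4.0.16 (R 4.3.3; quasi-likelihood, TMM, filterByExpr, batch as covariate, two-sided, Benjamini-Hochberg). P-values measure the spread between libraries. Exact intervals are 95% (scipy 1.17.1), and a count of 0 was given the limit of 3 counts. DESeq2 1.42.0, no filter, no batch term, batch 2 alone, leaving out libraries, a replicate block, Leiden resolution 0.5 and subtraction of free RNA, estimated from the barcodes of 50 UMIs or fewer, were alternatives. On counts simulated from the macrophage-like sums (1421 genes, 200 of them changed), 72% of genes changed by 1 on the log2 scale and 89.5% of those changed by 2 were recovered. False calls numbered 3 and 11. For dendritic-like sums (577 genes, 192 changed) the shares were 61.5 and 80.7%, and for B-like sums (507 genes, 169 changed) 8.28 and 50.3%. Over all cells (14181 genes, 200 changed) they were 62.5 and 94%. The adjusted threshold depends on how many genes change, so these shares do not give the chance of recovering a change in a few members.

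The members, marker lists and pathway lists were chosen with earlier results of these data known. Named genes were the members in every class, called genes of the pathway lists and, in macrophage-like and dendritic-like cells, the 3 others of each list with the most UMIs, the 5 genes most like the summed class II level by Pearson correlation of log2(CPM + 10) among genes with at least 200 UMIs, and up to 3 other called genes in each direction.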

Additional observations from a re-analysis of the deposited data

Results flagged for a closer look

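Within batch 2, with groups of 4 libraries, 8 of 67 groups held 1 library far from the other 3 by Dixon's ratio, which chance gives in about 1 of 20 groups. KO 2+3 was the library in 6 of them. In macrophage-like cells its H2-Eb1 level was 622.6 CPM, against 246 to 299 CPM in the other KO libraries. In tumor-like cells its H2-Aa level was 8.06 CPM (others 0.808 to 2.02) and its summed class II level 32.0 CPM (others 9.98 to 12.5). Over all cells KO 2+3 was at 25.001 CPM for H2-Ab1 (others 5.34 to 7.73), 35.0 CPM for H2-Eb1 (8.84 to 10.4) and 20.2 CPM for Cd86 (7.73 to 8.31). This library pools 2 tumors and had the largest share of presenting cells in batch 2, 8.85%. The other 2 were in tumor-like cells, where Cd74 in WT 5 was lowest at 2.56 CPM (other WT 3.70 to 3.85) and Cd86 in KO 1 was highest at 3.12 CPM (other KO 1.25 to 1.41).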

How the results depend on the processing

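Of 581 alternative values of the 38 member fold changes, 531 kept their direction and side of the threshold, 43 turned their sign and 7 passed the threshold. The numbers of genes called without a filter were 12 (macrophage-like), 2 (monocyte-like), 0 (B-like), 34 (tumor-like) and 242 (all cells). In batch 2 alone they were 1 (macrophage-like) and 3 (B-like). For B-like cells DESeq2, the fit without a batch term and the fit without the pooled KO libraries gave 0, and free RNA subtraction gave 4. Over all cells DESeq2 gave 2 and the fit without the pooled libraries 1. Leaving out 1 library gave 0 to 4 calls in macrophage-like, 0 to 1 in monocyte-like, dendritic-like and B-like cells and over all cells, 0 to 2 in endothelial-like cells (2 without WT 3) and 0 in tumor-like cells.

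Signs turned as follows (log2 fold changes; the cause was not tested). Without the pooled KO libraries H2-Aa was -0.050 in macrophage-like and -0.11 in tumor-like cells, and H2-DMb1 0.0064 and Cd40 -0.061 in tumor-like cells. In macrophage-like cells H2-Ab1 was 0.0093 with DESeq2, 0.044 without a filter and 0.27 at resolution 0.5. Without a batch term H2-Aa was -0.23 in monocyte-like and -0.039 in dendritic-like cells, H2-Ab1 -0.68, H2-Eb1 -0.66 and Cd74 -0.78 in B-like cells, and Cd40 -0.00081 in tumor-like cells. In monocyte-like cells Cd86 was 0.030 without a filter. In dendritic-like cells H2-Aa was -0.10 in batch 2 alone and -0.023 at resolution 0.5, where H2-Eb1 was 0.048. Leaving out 1 library gave H2-Ab1 -0.31 to 0.29 and Cd86 -0.0050 to 0.74 in macrophage-like cells, H2-Aa -0.13 to 0.35 in dendritic-like cells, H2-Ab1 -0.10 to 1.41 and Cd74 -0.022 to 1.41 in B-like cells, and H2-Aa -0.28 to 0.70, H2-DMb1 -0.15 to 0.14, Cd86 -0.14 to 0.43 and Cd40 -0.011 to 0.22 in tumor-like cells.

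Libraries share replicate numbers in batch 2 only for WT 1 with KO 1 and WT 4 with KO 4. Their deviations from the group means correlated by -0.226 and -0.253 (12436 genes), against -0.173 to 0.336 for the other pairs of WT and KO. With so few pairs this cannot decide whether samples of the same number were paired. With a replicate block over all cells 1 gene was called and Cd74 was 0.47. The block turned H2-Aa to -0.12 and Cd86 to -0.20 in macrophage-like, H2-Eb1 to 0.057 in dendritic-like, and H2-Aa to -0.13, Cd74 to -0.028 and Cd40 to -0.055 in tumor-like cells. Not run were monocyte-like cells at resolution 0.5, where batch 2 had no such cluster, B-like cells at that resolution or with the block, and free RNA subtraction in endothelial-like cells. In batch 2 macrophage-like cells the counts of 2 to 94 Cd74 UMIs per library limit every fold change.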
